A study of Ciona robusta with 15 samples.

Results

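The homeodomain factor Mnx, gene model KH.L128.12, was followed through whole embryos of the ascidian Ciona robusta that had been given notochord regulators in their nervous system. It is 1 of the 15284 gene models in the deposited tables and was chosen by its identifier. Each library was made from 300 embryos grown at 21 °C and collected at Hotta stage 19.5, after plasmids had been electroporated into fertilised, dechorionated eggs. In every plasmid the enhancer Etr1, from the neural gene Celf3/4/5/6, drives the coding sequence, so that expression of the added gene is directed to neural tissue. Control embryos received Etr1>H2B-Venus, a nuclear fluorescent reporter. Bra embryos received Etr1>Venus-Bra, Bra+Foxa.a embryos Etr1>Venus-Bra with Etr1>Foxa.a-Myc, Bra+Mnx embryos Etr1>Venus-Bra with Etr1>Mnx-HA, and Bra+Foxa.a+Mnx embryos the 3 factor plasmids together. No group received Mnx without Bra. There were 3 libraries a group, numbered 1 to 3 in the labels, and the series asks how Bra and its partners act in notochord fate.

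Mnx proteins are transcription factors that bind DNA through a homeodomain. In vertebrates the family member Mnx1, also called Hb9, is a classical marker of spinal motor neurons and is also made in the notochord of the embryo. In Ciona, Mnx is known as a gene of motor neurons in the motor ganglion. Bra is the T-box factor that specifies the notochord, and Foxa.a is a forkhead factor of the notochord, endoderm and ventral midline.

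The libraries held 17689915 to 26460260 reads, recovered as whole numbers from the deposited normalised values. Levels below are normalised reads on 1 scale rebuilt over all 15 libraries, and replicates are written as mean ± SD (n = 3). Reads of the plasmid and of the embryo's own Mnx gene cannot be told apart in these tables. Listed genes of the nervous system, notochord, muscle and heart were all read in every library. The names of these genes were paired with their identifiers in earlier work on these data and were not checked against an annotation.

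Mnx was read in all 15 libraries and was higher in each library given its plasmid than in any library without it. Over the 6 libraries with the plasmid it ran from 1453 to 2949.9 normalised reads with a median of 2228, and over the 9 without it from 224 to 569 with a median of 403. The lowest library with the plasmid stood 2.55-fold above the highest without. The mean difference on the log2(value + 1) scale was 2.48, and none of the 1000 ways of placing the plasmid label within replicate numbers gave a larger one (exact permutation test, two-sided, p = 0.001, the smallest it can give). This comparison checks the Mnx label, and each library lay on the side that its label gives.

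**Figure D1:**
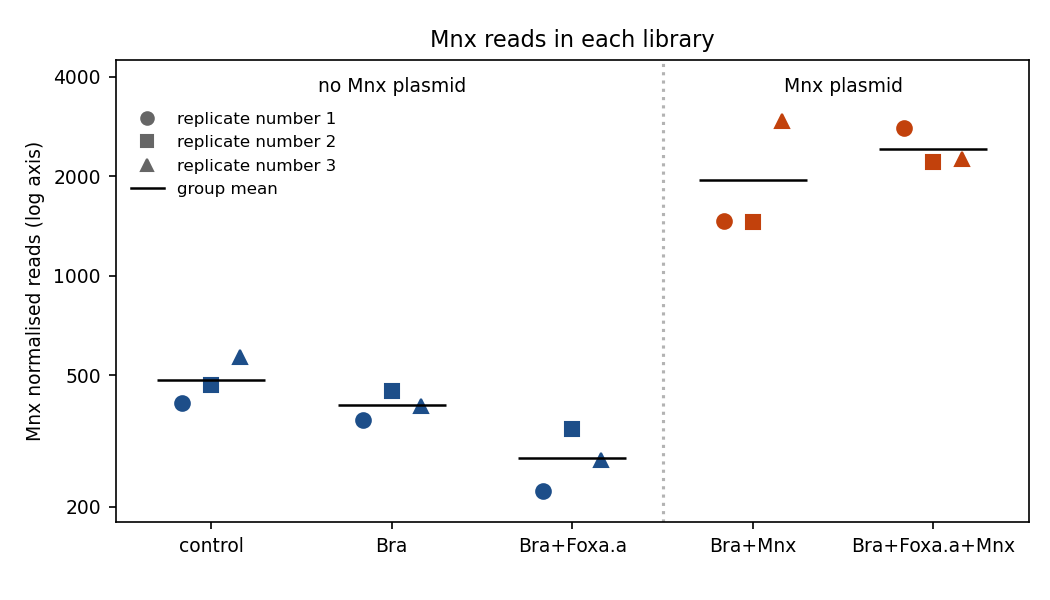
Mnx normalised reads (log axis) in each library, by group, with the replicate number as the marker and the group mean as a line. The 6 libraries with the Mnx plasmid lie at 1453 or above, and the 9 without it at 569 or below, with Bra+Foxa.a lowest.

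Without the Mnx plasmid, Mnx was highest in control embryos and lowest in Bra+Foxa.a embryos. Control libraries 1, 2 and 3 held 413, 468 and 569 normalised reads of Mnx (483 ± 78.9). Bra libraries held 366, 448 and 403 (406 ± 41.1), and Bra+Foxa.a libraries 224, 343 and 278 (282 ± 59.7). The Bra and control libraries overlapped, while all 3 Bra+Foxa.a libraries lay below every control and every Bra library. Within each replicate number the order was the same, control above Bra above Bra+Foxa.a, in 3 of 3 numbers. Permuting the 3 group labels within numbers gave p = 0.0278 for any difference among these groups (exact permutation test over 216 arrangements, added after the data were seen, and the smallest p it can give). In whole-embryo RNA, fewer cells with Mnx and less Mnx RNA in each cell cannot be told apart.

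The 9 libraries without the plasmid held 276 to 515 recovered reads of Mnx. In Bra+Foxa.a library 3, 276 reads came to 12.9 CPM, reads scaled to the library total, with a 95% Poisson interval of 11.4 to 14.5, and in control library 3, 515 reads came to 26.5 CPM, with an interval of 24.2 to 28.9. Such intervals cover counting error only. Ranked by reads among all gene models of its library, Mnx stood between places 5375 and 6285 in controls and between 6770 and 7965 in Bra+Foxa.a embryos.

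Bra alone was compared with control. Mnx was 0.25 ± 0.17 lower on the log2(value + 1) scale (SE, limma), which did not pass after adjustment over all genes (adjusted p = 1.00, and 0.121 with the replicate number as a block). The 95% interval of this difference ran from -0.63 to 0.13, and from -0.44 to -0.05 with the block, both before any adjustment. Of 14221 genes tested, 0.0703% were called lower in that comparison, and 2.4% with the block. The differences within numbers 1, 2 and 3 were -0.17, -0.06 and -0.50, all downward and the first 2 small. With edgeR and the block, an alternative added after the data were seen, the fall of 0.26 reached adjusted p = 0.0454.

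Bra+Foxa.a was set against control in the same way. Mnx stood 0.79 ± 0.20 lower (limma, 95% interval -1.24 to -0.33), a level 1.72-fold below control. With the block the interval was -1.02 to -0.55. The call depended on the fit: adjusted p was 0.0658 without the block and 2.46e-04 with it in limma, and 0.0607 with edgeR and 0.00744 with DESeq2, both without the block. Genes called lower made up 1.33% of the 14254 tested without the block and 12% with it, so a lower call with the block was frequent in that comparison. The differences within numbers were -0.88, -0.45 and -1.03, down in 3 of 3. With the block, Mnx passed when any 1 replicate number was left out (highest adjusted p = 0.0134, limma). In a fit of the 9 libraries without the Mnx plasmid, added after the data were seen, it passed both ways (limma, adjusted p = 0.0351, and 2.42e-05 with the block), where 1.5% and 8.92% of genes were called lower.

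Bra+Foxa.a was then compared with Bra, from which it differs by the Foxa.a plasmid. Mnx went from 406 to 282 normalised reads. The log2 difference was -0.54 ± 0.24 (limma over 15 libraries, 95% interval -1.06 to -0.02, and -0.94 to -0.14 with the block). It did not pass (adjusted p = 0.923, and 0.137 with the block), and 0.0771% of 14260 genes were called lower, 2.43% with the block. The differences within numbers were close together, at -0.71, -0.38 and -0.53. The fit over 15 libraries takes its error for Mnx partly from Bra+Mnx, the group in which Mnx varied most on the log2 scale. The fit of the 9 libraries without the Mnx plasmid gave the same difference. Its standard error was 0.18 without the block, against 0.24 over 15 libraries, and 0.11 with the block, against 0.19. Mnx passed in that fit with the block (limma, adjusted p = 0.00384, 3.22% of genes called lower). It did not pass without the block, where 0.0421% were called lower.

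With the plasmid, Mnx rose. Bra+Mnx libraries 1, 2 and 3 held 1468, 1453 and 2949.9 normalised reads (1957 ± 860.0), and Bra+Foxa.a+Mnx libraries 2798, 2204 and 2252 (2418 ± 330.2). Bra+Mnx library 3 lay far above the other 2 libraries of its group and above all 3 libraries given the 3 factors, so the groups with the plasmid overlapped. Its 137 CPM had a 95% Poisson interval of 132 to 143, against 69.6 CPM with an interval of 66.1 to 73.3 in library 2, so the gap was larger than counting error. In that group the SD of Mnx on the log2(value + 1) scale was 0.59, against a median SD of 0.16 over 1474 genes within 0.5 log2 units of its level, and 98.98% of those genes varied less. The SD of Mnx was also above the median of genes of like level in control (0.23 against 0.17), Bra+Foxa.a (0.31 against 0.21) and Bra+Foxa.a+Mnx (0.19 against 0.12), and below it in Bra (0.15 against 0.21). Ranks of Mnx by reads ran from 1458 to 2864 in Bra+Mnx and from 1513 to 1976 in Bra+Foxa.a+Mnx.

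In the comparisons with control, Bra+Mnx embryos had 1.94 ± 0.28 more Mnx on the log2(value + 1) scale (limma, 3.84-fold, adjusted p = 0.0135). Called higher were 1.47% of 14222 genes, or 6.48% with the block, and 119 of the former rose by more than Mnx did. Without control replicate 2 the call ended (adjusted p = 0.0547, log2 difference 1.92). Bra+Foxa.a+Mnx embryos had 2.32 ± 0.15 more (limma, 5.01-fold, adjusted p = 2.70e-04), in a comparison where 2.82% of 14213 genes were called higher, 7.86% with the block, and 107 of the former rose by more. Both passed with the block as well. Both comparisons share the 3 control libraries with the 2 described above. Ratios to the control of the same number were 3.55, 3.10 and 5.19 in Bra+Mnx, and 6.77, 4.71 and 3.96 in Bra+Foxa.a+Mnx.

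**Figure D2:**
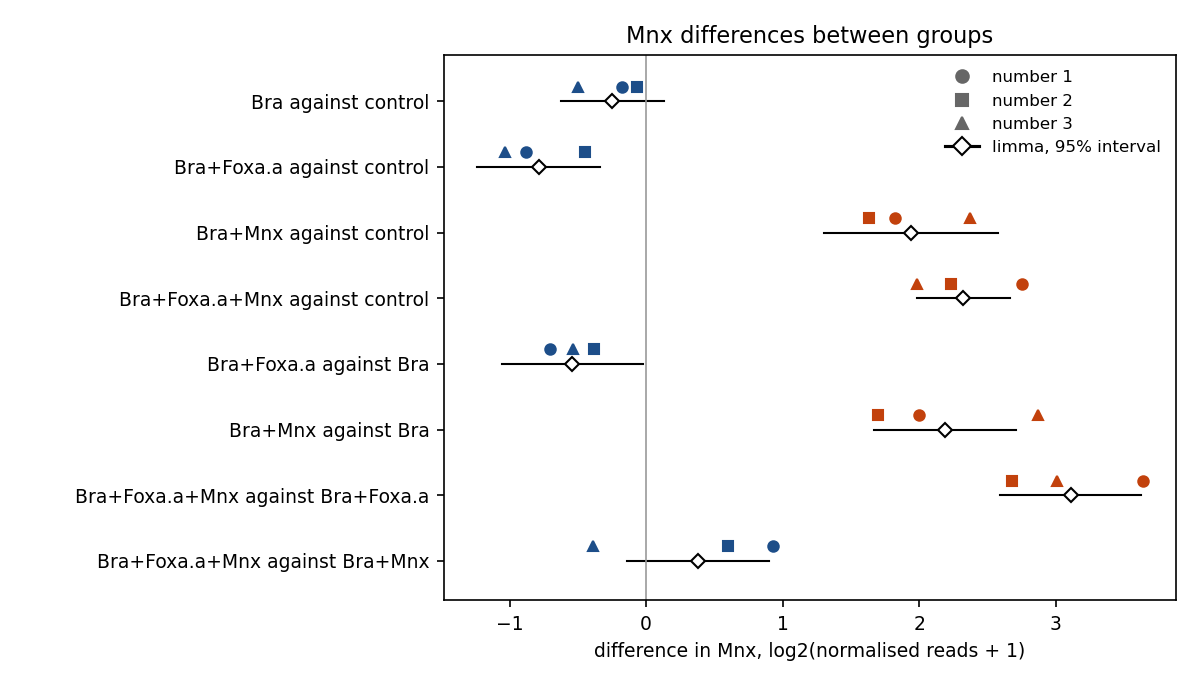
Differences in Mnx between groups on the log2(normalised reads + 1) scale: each filled marker is the difference within 1 replicate number, and each open diamond is the limma estimate with its 95% interval, without a block. Orange comparisons differ in the Mnx plasmid and lie between 1.63 and 3.64 in every number, and blue ones do not differ in it; the first 4 rows share the control libraries.

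The plasmid was also read against the group that differed by it alone. Bra+Mnx had 2.19 ± 0.24 more Mnx than Bra (limma over 15 libraries, adjusted p = 0.00485), a 4.56-fold difference. Only 2 of 14260 genes were called higher in that comparison, or 0.014%, and Mnx was 1 of them, with the other rising by more. With the block 0.491% were called higher, Mnx among them. Bra+Foxa.a+Mnx had 3.11 ± 0.24 more than Bra+Foxa.a (limma, 8.63-fold, adjusted p = 6.20e-05), the largest positive difference of all genes tested, where again 2 genes or 0.014% were called higher, and 0.386% with the block. Both calls held in all 15 fits that left out 1 library, but the difference could not change where that library was of neither group compared. The highest adjusted p was 0.0480 for Bra+Mnx against Bra, without Bra replicate 3 (limma). For Bra+Foxa.a+Mnx against Bra+Foxa.a it was 9.45e-04, without Bra+Foxa.a+Mnx replicate 1 (limma). The reference of the second comparison, Bra+Foxa.a, had the lowest Mnx of the 5 groups.

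The Mnx reads added with the plasmid were also compared on the linear scale. Over the same-numbered Bra library, Bra+Mnx libraries 1, 2 and 3 held 1102, 1005 and 2547 more normalised reads of Mnx (1551 ± 864). Over the same-numbered Bra+Foxa.a library, Bra+Foxa.a+Mnx libraries held 2574, 1860.4 and 1973 more (2136 ± 384). The second set was higher in numbers 1 and 2, by 1472 and 855 reads, and lower in number 3, where the difference was -574 reads. These linear differences were not tested.

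Whether the difference in total Mnx reads with and without the plasmid changed with Foxa.a was tested as a difference of log2 differences. That value takes in the lower Mnx of Bra+Foxa.a than of Bra (-0.54), both without the plasmid, so it does not measure plasmid Mnx alone. On the log2(value + 1) scale the value was 0.92 ± 0.34 (limma, 95% interval 0.19 to 1.65, and 0.36 to 1.48 with the block, before any adjustment). After adjustment over all genes it did not pass (adjusted p = 1.00, and 0.457 with the block). By number it was 1.64, 0.98 and 0.14, so most of it came from numbers 1 and 2. Of 14260 genes, 0% were called higher in this test with limma, with or without the block, and 58 had an unadjusted p under 0.05 in that direction. EdgeR and DESeq2 each called 0 higher. The same value is the difference of the Foxa.a effect on Mnx: the mean was 406 normalised reads in Bra and 282 in Bra+Foxa.a, against 1957 in Bra+Mnx and 2418 where the 3 factors were given. The latter difference was 0.38 ± 0.24 (limma, 95% interval -0.14 to 0.90 and adjusted p = 1.00, or -0.02 to 0.78 and 0.498 with the block). Of 14260 genes, 0.105% were called higher there, and 1.06% with the block. The difference ran 0.93, 0.60 and -0.39 within numbers 1, 2 and 3. With 1 library left out it lay between 0.21, without Bra+Mnx replicate 2, and 0.72, without Bra+Mnx replicate 3, and did not pass in any of these fits. With the block and without number 3 it was 0.77 and passed (limma, adjusted p = 0.0183), an alternative added after the data were seen.

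From lowest to highest, the order of the group means was therefore Bra+Foxa.a, Bra, control, Bra+Mnx and Bra+Foxa.a+Mnx. Of the neighbours, control and Bra+Mnx differed beyond their spread. Bra and control, and Bra+Mnx and Bra+Foxa.a+Mnx, overlapped, and neither pair passed in limma with or without the block. Bra+Foxa.a and Bra did not overlap but passed only in the separate paired fit of libraries without the Mnx plasmid.

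The other electroporated genes and the driver gene were read in the same libraries. Bra (KH.S1404.1), whose plasmid all 4 treated groups carried, was at 1083, 1279 and 1243 normalised reads in Bra+Mnx libraries 1, 2 and 3 and at 1550.4, 1618 and 1454 in Bra+Foxa.a+Mnx. In Bra+Mnx library 3, where Mnx was highest, Bra stood 1.16 above its same-numbered control on the log2(value + 1) scale, against 0.82 and 0.69 in libraries 1 and 2. Foxa.a (KH.C11.313), not given to this group, stood 0.86 above control there, against 0.60 and 0.40. Celf3/4/5/6 (KH.C6.128) encodes an RNA-binding protein, and its enhancer drives the plasmids. Its difference from the same-numbered control was -1.42 in library 3 and -0.95 and -1.22 in libraries 1 and 2. Thus library 3 lay farthest from its control in all 4 genes, and the part of this in the high Mnx of that library was not tested. This was not limited to that library. For Celf3/4/5/6 number 3 was also farthest in Bra embryos (-0.95) and with the 3 factors (-1.63), but not in Bra+Foxa.a (-1.25). Bra reads in Bra+Mnx library 3 were below those of library 2, and control library 3 held the fewest Bra reads of the controls, at 556.

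The driver gene was then followed across the groups. Celf3/4/5/6 averaged 9522 normalised reads in controls and 5649.7 in embryos given Bra. Foxa.a as a second plasmid went with 3934, Mnx as a second plasmid with 4149, and the 3 factors together with 3530.3. Without the Mnx plasmid its means took the same order of groups as those of Mnx, and with the plasmid Mnx was high while the driver gene's own RNA was low. In Bra+Mnx against Bra its difference was -0.44 ± 0.13, a call made with the block alone (limma, adjusted p = 0.916 without and 0.0167 with it). In Bra+Foxa.a+Mnx against Bra+Foxa.a it was -0.16 ± 0.13 and did not pass (limma, adjusted p = 1.00, and 0.634 with the block).

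**Figure D3:**
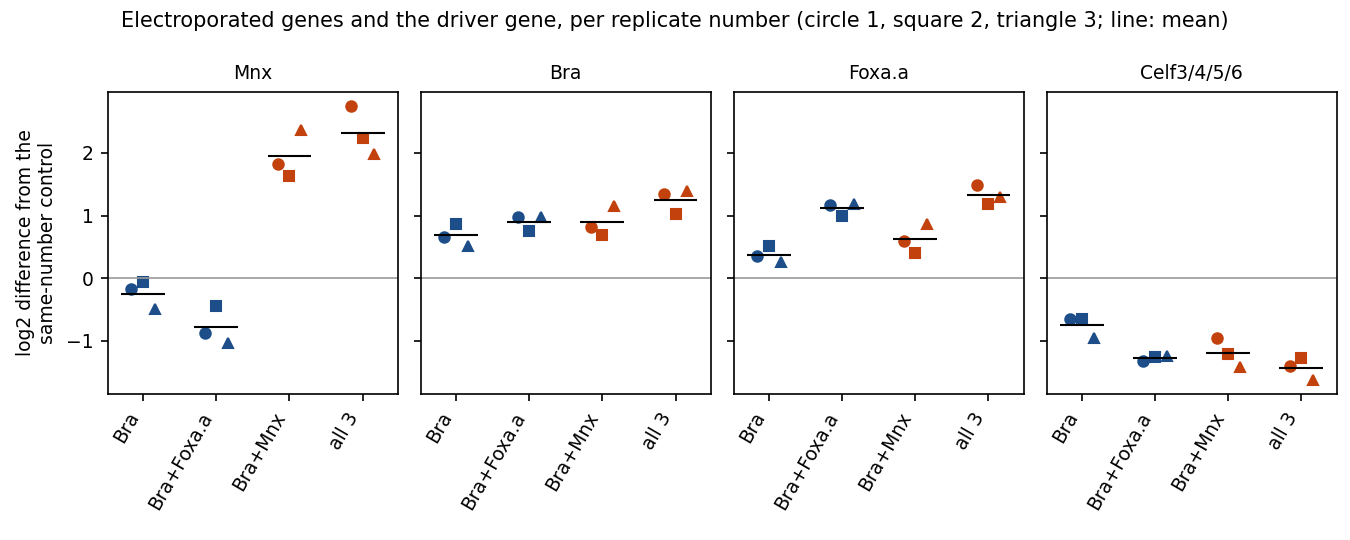
Differences of Mnx, Bra, Foxa.a and Celf3/4/5/6 from the same-numbered control on the log2(normalised reads + 1) scale, in the 4 groups given Bra, which share those controls. Mnx lies below control in every library without its plasmid (blue) and above it in every library with it (orange), while Celf3/4/5/6 lies below control throughout.

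Neuronal regulators were set beside Mnx because it is a gene of motor neurons. The 4 listed are Neurog (KH.C6.129), a proneural factor, Ebf (KH.L24.10), a factor of differentiating neurons, Pou4 (KH.C2.42), a POU factor of sensory neurons, and Islet (KH.L152.2), a LIM homeodomain factor that in vertebrates acts with its partners in motor neurons. In Bra+Foxa.a against Bra 0 of the 4 passed without the block and 3 fell with it (limma), where 0.0771% and 2.43% of all genes were called lower. Without the block, 3 of the 4 were lower at an unadjusted p under 0.05, as were 363 of 14260 genes (limma). EdgeR called 1 of the 4 and 12 of all genes lower, and DESeq2 2 and 62. The log2 differences of the 3 that fell with the block were -0.80 for Ebf, -0.76 for Pou4 and -0.53 for Neurog (limma), beside -0.54 for Mnx and a median of -0.01 over all genes. Islet, at -0.41, did not pass in this fit (adjusted p = 0.221 with the block). In the fit of the 9 libraries without the Mnx plasmid all 4 passed with the block, as Mnx did. There Islet had adjusted p = 0.0421 with the block (limma, 3.22% of genes called lower) and did not pass without it. Islet went from 227, 368 and 208 normalised reads in Bra libraries 1, 2 and 3 to 157, 250.1 and 188 in Bra+Foxa.a, lower in each number. Falls were not limited to neuronal regulators. With the block 7 of the 15 listed genes other than Mnx fell, and 2 rose, Foxa.a, whose plasmid was added, and Hand-r (KH.C1.1116). Among the 7 were the neural genes Tyr (KH.C12.469, -0.73) and Otx (KH.C4.84, -0.37) and the muscle regulator Mrf (KH.C14.307, -0.38). Called higher with the block were 2.29% of all genes (limma).

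In Bra against control, 1 of the 4 neuronal regulators fell without the block and 4 with it (0.0703% and 2.4% of all genes called lower), while Mnx passed in neither fit. In Bra+Foxa.a against control the counts were 3 and 4 of 4 (1.33% and 12%), with a median log2 difference of -1.27 beside -0.79 for Mnx and -0.01 over all genes. With the Mnx plasmid, 2 of the 4 fell in Bra+Mnx against control without the block and 4 with it (median -0.96, 0.394% and 6.57% of all genes called lower), and 3 and 4 of 4 in Bra+Foxa.a+Mnx (median -1.34, 1.16% and 6.68%). Ebf averaged 727 ± 97.4 in control and 460.5 ± 31.5 in Bra embryos, with no overlap of the 6 libraries, and Neurog did not overlap either. Pou4, Islet and Mnx each overlapped between these groups. The size of the fall of Mnx was not tested against that of the others.

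The listed genes were also read in the 2 comparisons that add Mnx to a group. Of the 15 listed genes other than Mnx, 0 passed without the block in either with limma, edgeR or DESeq2, where 0.014% and 0.217% of all genes were called lower by limma. Before adjustment 6 of the 15 were lower and 1 higher at p under 0.05 in Bra+Mnx against Bra, and 0 in Bra+Foxa.a+Mnx against Bra+Foxa.a (limma). Of all 14260 genes, 262 were lower and 155 higher by that rule in the first comparison. In the second 371 were lower and 104 higher. With the block 4 of 15 fell in Bra+Mnx against Bra, against 0.835% of all genes, and 1 of 15 in Bra+Foxa.a+Mnx against Bra+Foxa.a, against 1.79% (limma). The median log2 difference of the 15 was -0.31 in the first and -0.05 in the second, beside 0.00 and 0.01 over all genes. The first 4 were Celf3/4/5/6, Ebf, the homeodomain factor Msx (KH.C2.957) and the cardiac factor Nkx2-5 (KH.C8.482), and the last was Msx. Msx stood at -0.41 ± 0.31 in the first comparison (adjusted p = 1.00, and 0.0239 with the block) and at -0.37 ± 0.31 in the second (adjusted p = 1.00, and 0.0264 with the block). The replicate numbers differed widely in Msx, from 836 to 1504 normalised reads among the Bra+Mnx libraries and from 1100 to 1871 among the Bra libraries, so that the groups overlapped. Nkx2-5 was at 1697, 1787 and 1482 in Bra+Mnx against 2088, 2584 and 1920.3 in Bra, without overlap. Islet, Neurog and Pou4 did not pass with the block in either comparison.

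**Figure D4:**
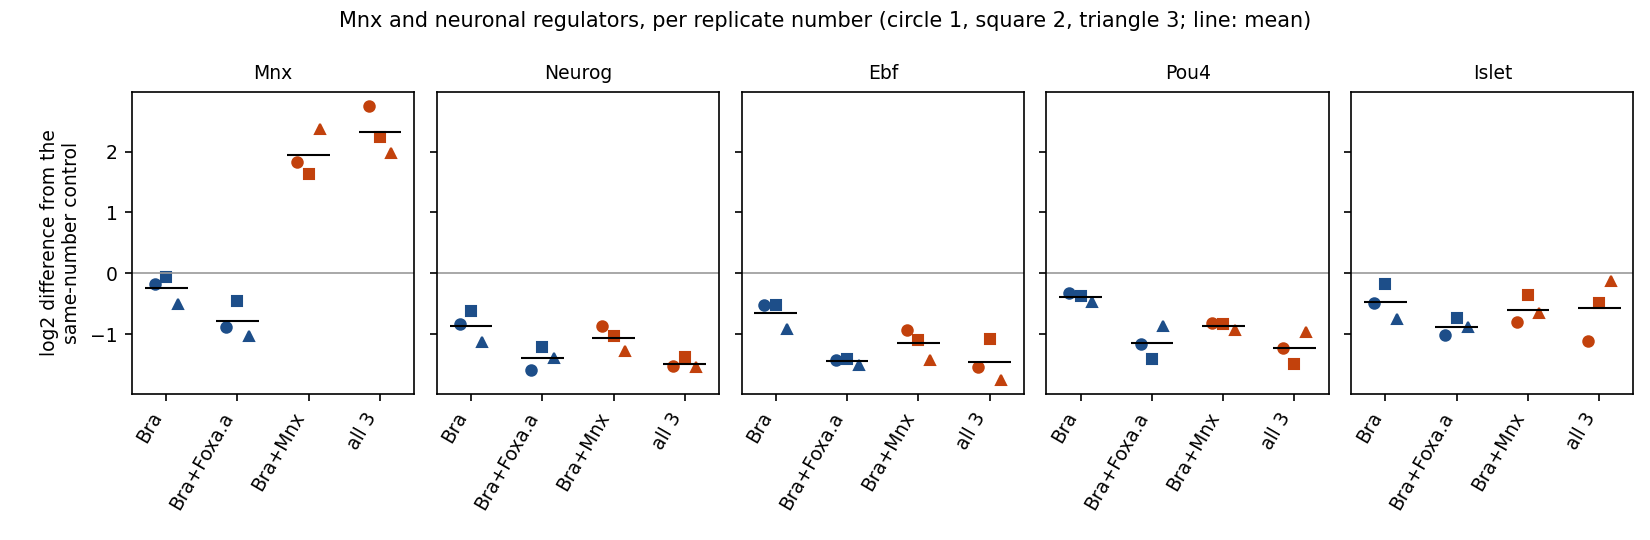
Differences of Mnx and 4 neuronal regulators from the same-numbered control on the log2(normalised reads + 1) scale. All 4 regulators lie below control in every library of the 4 groups, as Mnx does in the groups without its plasmid (blue).

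Genes whose level followed that of Mnx most closely were found by Pearson's r over log2(value + 1), after the mean of each replicate number was taken out, among 12596 other genes with a mean of at least 10 normalised reads. Over the 15 libraries the highest were KH.C9.444 (r = 0.89) and KH.C2.245 (r = 0.88), beside a range of -0.59 to 0.62 for the central 95% of genes. KH.C9.444 averaged 232 ± 24.9 normalised reads in control, 257 ± 11.5 in Bra and 264 ± 30.1 in Bra+Foxa.a embryos. Its means were 422 ± 157 under Bra+Mnx and 488 ± 67.8 under the 3 factors. Its 3 Bra+Mnx libraries held 275, 403 and 588, so library 3 was highest there too. KH.C2.245 lay between 1153 and 1529 in the 9 libraries without the plasmid and between 1591 and 1893 in the 6 with it. Both genes were picked for their r with Mnx over these same libraries, so these likenesses are no separate evidence.

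Over the 9 libraries without the plasmid other genes came first, KH.C14.87 and KH.C4.34, both with r = 0.99. The central 95% of genes then ran from -0.91 to 0.92, so high values were frequent with only 3 groups of 3. Listed genes ran from -0.95 for Hand-r to 0.98 for Mrf, with the 4 neuronal regulators at 0.89 to 0.95. KH.C14.87 averaged 704 ± 124 normalised reads in control, 592 ± 101 in Bra and 372 ± 33.2 in Bra+Foxa.a embryos. It was at 469 ± 114 in Bra+Mnx and 362 ± 6.86 where all 3 factors were given. KH.C4.34 took the same order, at 4398 ± 368, 3949.9 ± 365 and 2764 ± 228 in the groups without the plasmid. Being picked by r with Mnx favours such an order. These r are descriptions, since the libraries share groups and numbered sets, and the files give these gene models no names.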

How the data were processed

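RNA of 15 whole-embryo samples was sequenced from stranded mRNA libraries, per the labels' protocols. TopHat2 2.9.8b and DESeq 1.8.1 are named in the submitters' processing notes; for the genome build, the read counter and strand handling, the sources used here give nothing. The authors deposited 4 tables, each with the control libraries and 1 treated group, whose values are a signal of counts normalised to library size, per the file headers. Each column was in whole multiples of 1 step (100% of values within 0.01), and division by it gave the reads. A further 24 columns, regularised log values per the file headers, were not used. Of the gene models, 305 had no read.

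Comparisons with control used limma-trend (limma 3.58.1, R 4.3.3) within each table on log2(value + 1), for genes with a mean of at least 1. The tables were normalised separately, so the remaining comparisons, and all levels printed, used recovered reads divided by median-of-ratios size factors over 15 libraries, in 1 fit. P-values were adjusted by Benjamini-Hochberg over all genes, with a threshold of 0.05. The written design held edgeR for counts and limma for normalised values, and the latter applied. Alternatives were edgeR 4.0.16 and DESeq2 1.42.0 on recovered reads, other pseudocounts and filters, the replicate block, and each library left out. The fits were tested on simulated counts.

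Replicate numbers come from the titles. Deviations from group means correlated at 0.55 to 0.72 in the 30 same-numbered pairs of different groups and at -0.44 to -0.12 in the 60 others, over 14260 genes, so the numbers were taken to pair the libraries. Deviations cancel within a group by construction, so the negative values follow from the positive ones and are no separate evidence. The replicates are called biological in the series text with no more detail, so the p-values cover the spread among these samples, which may be technical. No replicates agreed within sampling noise (lowest chi-square over its degrees of freedom 13.0). The gene and the context list were chosen with earlier results of these data known. Genes most like Mnx were the 2 with the highest r over 15 libraries and over the 9 without the plasmid.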

Additional observations from a re-analysis of the deposited data

How the results depend on the processing

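Of 230 alternatives over the 10 results, 218 kept direction and side of the threshold and none reversed. The rest concern 5 results. Mnx in Bra+Foxa.a against control passed with the replicate block (log2 difference -0.79), with DESeq2 (-0.78), with edgeR and the block (-0.78), with the block and 1 replicate number left out (-0.74, -0.96 and -0.66) and in the 9 libraries without the Mnx plasmid, without and with the block (-0.79 in both); leaving out 1 library gave -0.94 to -0.63 (limma, adjusted p 0.0598 to 0.220). In Bra against control it passed with edgeR and the block (-0.26; -0.35 to -0.12 with 1 library left out), and in Bra+Foxa.a against Bra with the block in those 9 libraries (-0.54). In Bra+Foxa.a+Mnx against Bra+Mnx it passed with the block without number 3 (0.77). In Bra+Mnx against control, leaving out 1 library gave 1.60 to 2.11, and the call ended without control replicate 2 (limma, adjusted p = 0.0547). The difference with against without the plasmid stayed between 2.38 and 2.65 in all its alternatives (exact permutation, highest p = 0.00926, with the controls left out). Each p was the smallest its arrangements could give, so the p-values do not measure how the result depends on the setting. The block also raised the calls over all genes, for Bra+Foxa.a against control from 1.33% to 12% called lower and for Bra+Mnx against Bra from 0.014% to 0.491% called higher, and DESeq2 called 10 genes higher in the latter where limma called 2. The cause of these changes was not tested. With 276 to 515 reads of Mnx in libraries without the plasmid, small differences there are limited by counting as well as by replicate spread. Groups of 3 limit the test of whether the log2 difference in total Mnx with the plasmid changed with Foxa.a.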
